A study of Mus musculus with 4 samples.

Results

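The expression of 10 genes of the bone marrow niche was followed on 4 microarrays: the chemokine Cxcl12, the leptin receptor Lepr, stem cell factor Kitl, placental growth factor Pgf, the collagen I chains Col1a1 and Col1a2, and the endothelial surface genes Emcn, Cdh5, Kdr and Pecam1. They are 10 of 34787 genes named on the array, of which 28286 had a probe well above background on at least 1 array. The members were found by their symbol in the array files, among the probes that are not controls, which gave 15 probes printed as 28 spots. The genes were selected on the processed signals of these same arrays and the differences between them, so every level and difference of a member below is a description, and no test is given.

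The 4 samples were cKO LT-HSC, WT LT-HSC, cKO MPP and WT MPP, with 1 array each. Donors were male C57BL/6J mice (Ly5.2) aged 10 weeks, either with a conditional knockout of p38, named p38 alpha in the study's title, or wild type. From femur and tibia, LSK cells (lineage-negative, Sca-1-positive, Kit-positive) negative for CD34 and Flt3 were taken as LT-HSC, the long-term haematopoietic stem cells, and those positive for both as MPP, the multipotent progenitors. All 4 preparations carried the dye CFSE, were transplanted into Ly5.1 congenic mice given 9.5 Gy, and were sorted again by CFSE from the recipients' marrow after 16 h. The Cre driver, the deleted exons and the number of mice pooled are not given in the sources used here, and "cKO" means the array labelled so.

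The word niche is used here for the non-haematopoietic marrow cells that hold stem cells in place and feed them. Perivascular stromal cells that carry the leptin receptor are the main marrow source of CXCL12, which retains stem cells through the receptor CXCR4, and share with endothelium the making of stem cell factor, the ligand of KIT. Osteoblasts and fibroblasts secrete collagen I. Endothelium is known by VE-cadherin, PECAM1 and the VEGF receptor KDR, and its venous and sinusoidal parts also by endomucin. The sort was for haematopoietic cells, so most of these transcripts are those of cells the gate was meant to leave out, although PECAM1 and endomucin are also found on haematopoietic stem cells.

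All 4 arrays lay on 1 slide from 1 scan and had 59305 spots of 55681 probes each. Between 62.5% and 70.5% of spots were well above background and 0 were saturated. Levels are the processed signal, a background-subtracted brightness on a linear scale, and a difference between arrays is the log2 ratio after division by each array's 75th percentile, which lay between 175.0 and 213.9. The error after ± is the scanner software's own for that difference. It covers neither the sort nor the animals, and with 1 array a group no difference has a replicate check. In bulk RNA, fewer cells of a type and less RNA per cell cannot be told apart. The genes used for sorting stood on each array as follows. Kit had signals of 2763 on cKO LT-HSC, 2956 on WT LT-HSC, 2658 on cKO MPP and 3737 on WT MPP. Cd34 had 3601 on cKO LT-HSC, 1169 on WT LT-HSC, 6331 on cKO MPP and 7733 on WT MPP, and was 1.71 ± 0.20 (log2) higher on the cKO LT-HSC array than on the WT LT-HSC array. Ly6a, the gene of Sca-1, had 4287 on cKO LT-HSC, 4387 on WT LT-HSC, 860.1 on cKO MPP and 939.1 on WT MPP. Flt3 had 189.2 on cKO LT-HSC, 176.6 on WT LT-HSC, 365.3 on cKO MPP and 515.1 on WT MPP, well above background on all 4 arrays. The B cell genes Cd79a, Cd79b, Pax5, Vpreb1 and Igll1 were well above background on both LT-HSC arrays, in 5 of 5 cases each. On each MPP array 4 of these 5 were well above background too.

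The probe sequences are shown because the value of a member is the brightness of these 60 bases, and because Cxcl12, Lepr and Kdr have probes at different places that did not behave alike. The first 30 bases of each are given, 5′ to 3′, as the array files list them, with the files' mm9 coordinates for the whole probe. No mm9 annotation was used here, so exon or UTR is not stated, and transcripts are named through the RefSeq accession that the files give each probe.

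Cxcl12, transcript variant 3 and another transcript, chr6:117131227-117131286, plus strand: aggagaaggcagcttcctatatgcagcgtg
Cxcl12, transcript variant 1, chr6:117125026-117125085, plus strand: gctgtaaacctcctaccgtatgtgggaatt
Lepr, transcript variant 2, chr4:101452666-101452725, plus strand: aattccctcggcgcttcccttgtgaatttt
Lepr, transcript variants 1 and 2, chr4:101464615-101464674, plus strand: ttgggacgatgttccaaaccccaagaattg
Lepr, transcript variant 3, chr4:101485725-101485784, plus strand: tgaaggaaatcacaaaggttctgtcggaca
Lepr, transcript variant 1, chr4:101487858-101487917, plus strand: gtgacttaactgtgtaatctcatccaagaa
Kdr, brighter probe, chr5:76330395-76330454, minus strand: tgtttaaatggaagtggtcctgtcccggct
Kdr, dimmer probe, chr5:76329309-76329368, minus strand: ctactgtatcctttagaattttaacctata
Col1a1, chr11:94813115-94813174, plus strand: tgaccaactgaacgtgaccaaaaaccaaaa
Pgf, chr12:86508335-86510337, minus strand: tagaaactcacagactgaggaaccccaccc

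The Pgf probe is listed over 2003 bases of the genome although it is 60 bases long. The Col1a1 probe held 31 A among its 60 bases, with a longest run of 6 A. Col1a1, Col1a2, Emcn, Cdh5, Kitl, Pgf and Pecam1 had 1 probe each, so for these 7 genes no second probe shows whether the value holds at another place of the transcript. The remaining probes lie at chr6:4490619-4490678 on the plus strand for Col1a2, chr3:137086389-137086448 on the plus strand for Emcn, chr8:106668159-106668218 on the plus strand for Cdh5, chr10:99558962-99559021 on the plus strand for Kitl and chr11:106540864-106540923 on the minus strand for Pecam1.

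Of the secreted factors, Cxcl12 and Pgf were bright on the WT LT-HSC array and dim on the other 3. Cxcl12 had a processed signal of 199.9 on cKO LT-HSC, 5118 on WT LT-HSC, 153.3 on cKO MPP and 94.9 on WT MPP. The 3 dimmer arrays spanned 94.9 to 199.9, all of them well above background. Pgf, a ligand of the VEGF receptor FLT1, had 55.0 on cKO LT-HSC, 851.4 on WT LT-HSC, 40.4 on cKO MPP and 37.2 on WT MPP. Its 3 dimmer values again lay close together. Kitl did not share this pattern: its signal was 76.3 on cKO LT-HSC, 30.4 on WT LT-HSC, 29.7 on cKO MPP and 25.9 on WT MPP. It was brightest on the cKO LT-HSC array, and the values of the other 3 arrays were 25.9 to 30.4.

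Of the receptors, Lepr had the same order as Cxcl12, and Kdr changed little. At its brightest probe Lepr gave 16.5 on cKO LT-HSC, 255.7 on WT LT-HSC, 11.2 on cKO MPP and 8.87 on WT MPP, with both MPP values not well above background. Its value on the cKO LT-HSC array lay just over the lowest signal well above background there, which was 12.6. Kdr, the main signalling receptor for VEGF-A, gave 1002 on cKO LT-HSC, 1866 on WT LT-HSC, 1238 on cKO MPP and 1234 on WT MPP. It was well above background on every array, and its highest value was on the WT LT-HSC array.

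Both collagen I chains, which assemble into a single triple helix, were brightest on the WT LT-HSC array. Col1a1 had 20.6 on cKO LT-HSC, 428.2 on WT LT-HSC, 20.3 on cKO MPP and 29.0 on WT MPP. Col1a2 had 53.1 on cKO LT-HSC, 397.7 on WT LT-HSC, 58.8 on cKO MPP and 94.5 on WT MPP. For both chains the WT array was the brighter one within LT-HSC and within MPP, by much less in MPP.

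The endothelial surface genes followed 3 different orders. Emcn, which encodes the sialomucin endomucin of venous and sinusoidal endothelium, had 16.9 on cKO LT-HSC, 144.2 on WT LT-HSC, 32.3 on cKO MPP and 100.8 on WT MPP. It was brighter on the WT array in both populations. Cdh5, the VE-cadherin of endothelial adherens junctions, had 158.8 on cKO LT-HSC and 149.6 on WT LT-HSC, against 6.95 on cKO MPP and 3.89 on WT MPP. It was brighter on LT-HSC than on MPP in both genotypes, and the 2 LT-HSC arrays were within 2-fold of each other. Neither MPP value was well above background, so the genotypes could not be compared in MPP. Pecam1, an adhesion molecule of endothelium, platelets and leukocytes, had 612.2 on cKO LT-HSC, 123.9 on WT LT-HSC, 309.0 on cKO MPP and 353.0 on WT MPP. Its dimmest array was WT LT-HSC, the brightest for Cxcl12.

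**Figure D1:**
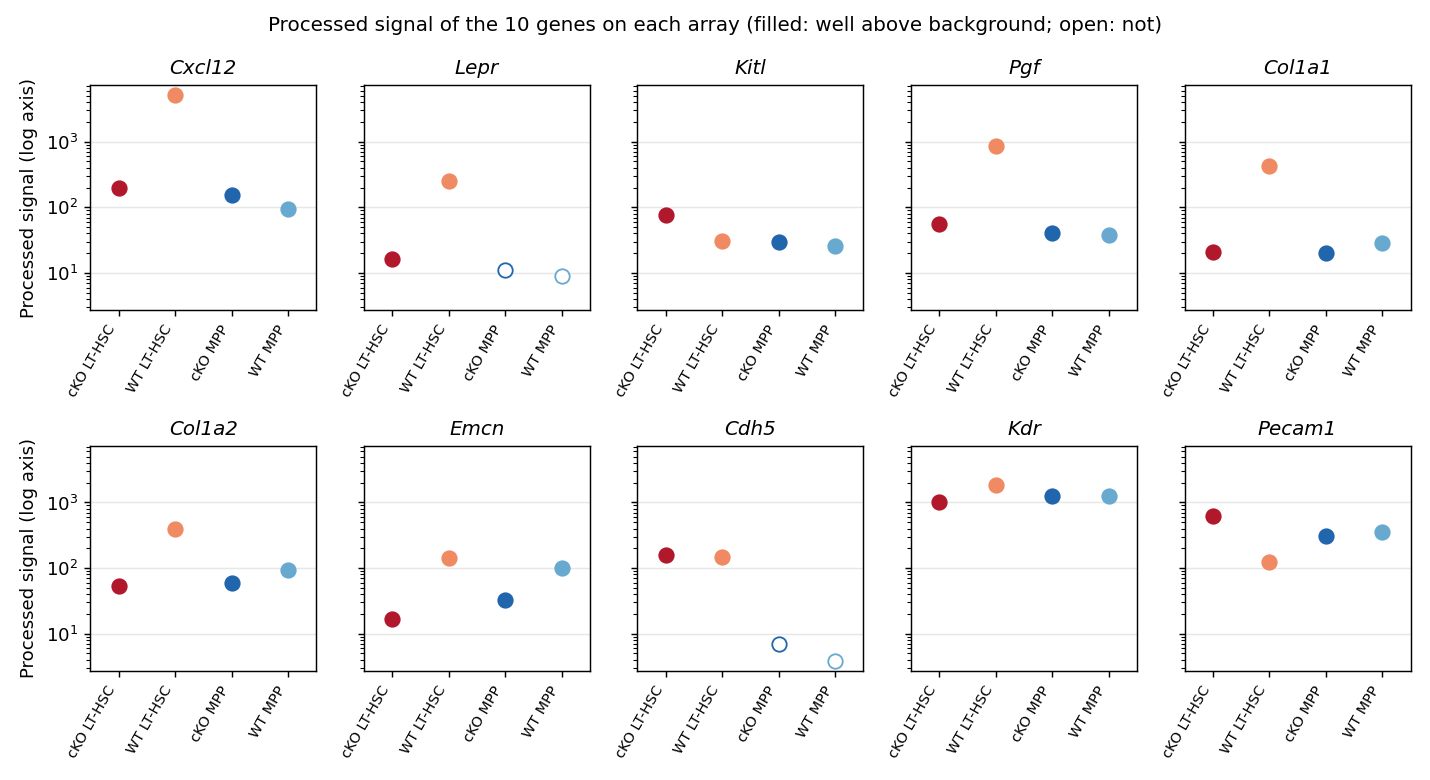
Processed signal (linear units on a log axis) of the 10 genes at the probe used for each, on the arrays cKO LT-HSC, WT LT-HSC, cKO MPP and WT MPP. Filled points are well above background and open points are not. Cxcl12, Lepr, Pgf, Col1a1 and Col1a2 stand out on the WT LT-HSC array, Cdh5 is seen on both LT-HSC arrays, and Kitl and Pecam1 are highest on the cKO LT-HSC array.

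Relative to each array's 75th percentile, 7 of the 10 genes had their highest level on the WT LT-HSC array, where 24.2% of all genes had theirs. The other 3, Cdh5, Kitl and Pecam1, were highest on the cKO LT-HSC array, which held the highest level of 25.3% of all genes. Neither MPP array held the highest level of a member, against 17.7% of all genes on cKO MPP and 32.8% on WT MPP. All 10 genes were well above background on both LT-HSC arrays and 8 on each MPP array. Of all spots, 70.5% were so on cKO LT-HSC, 68.3% on WT LT-HSC, 65.0% on cKO MPP and 62.5% on WT MPP. These are shares of spots and not of genes, and the members were selected on these signals, so nothing is read from the counts.

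Between the genotypes within LT-HSC, the cKO array was at least 2-fold dimmer for 6 of the 10 niche genes and at least 2-fold brighter for 2. Over all 27591 genes with a value, 8.26% were lower and 10.8% higher by that much, and since this contrast was known when the genes were listed, nothing is read from the comparison. Cxcl12 was 24.2-fold lower on the cKO array (-4.60 ± 0.21), Col1a1 19.7-fold lower (-4.30 ± 0.28), and Lepr and Pgf 14.6-fold lower each (-3.87 ± 0.32 and -3.87 ± 0.22). Emcn was 8.03-fold lower (-3.01 ± 0.31) and Col1a2 7.07-fold lower (-2.82 ± 0.22). These 6 include genes of stroma and bone-forming cells, and of the endothelial surface genes Emcn alone. In the opposite direction, Pecam1 was 5.23-fold higher on the cKO array (2.39 ± 0.21) and Kitl 2.66-fold higher (1.41 ± 0.25). Kdr (-0.81 ± 0.20) and Cdh5 (0.17 ± 0.21) lay within 2-fold. The median of the 10 differences was -2.91, against 0.12 over all genes, whose middle 50% lay between -0.28 and 0.51. Among the 24116 genes measured on both arrays, Cxcl12 ranked 5 from the lowest, Col1a1 9, Pgf 17, Lepr 18, Emcn 73 and Col1a2 102, while Pecam1 ranked 256 from the highest and Kitl 1141. With normexp background correction and quantile normalization the differences were smaller, at 0.53 for Kitl, -1.36 for Emcn, -1.96 for Lepr, -2.002 for Col1a2, -2.58 for Col1a1 and -3.01 for Pgf, and the median of the 10 was -1.66. With a gene's probes averaged, Cxcl12 stood at -3.23 and Lepr at -2.76.

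Within MPP the same comparison gave values for 8 of the 10 genes, and Lepr and Cdh5 had none because neither array was well above background. Emcn alone reached 2-fold, 3.06-fold lower on the cKO array (-1.61 ± 0.25), against 2.80% of all 25081 genes with a value, and 0 members were higher, against 2.43% of all genes. Emcn ranked 55 from the lowest among 22387 measured genes, and with normexp and quantile normalization its difference was -0.86, within 2-fold. The collagen chains were lower by less, at -0.66 ± 0.22 for Col1a2 and -0.49 ± 0.32 for Col1a1. Cxcl12 was 1.65-fold higher on the cKO array (0.72 ± 0.21), opposite in sign to LT-HSC. Kitl (0.22 ± 0.31), Pgf (0.15 ± 0.26), Kdr (0.03 ± 0.20) and Pecam1 (-0.16 ± 0.21) differed by less than their scanner error. The median of the 8 was -0.06 and that of all genes -0.05.

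**Figure D2:**
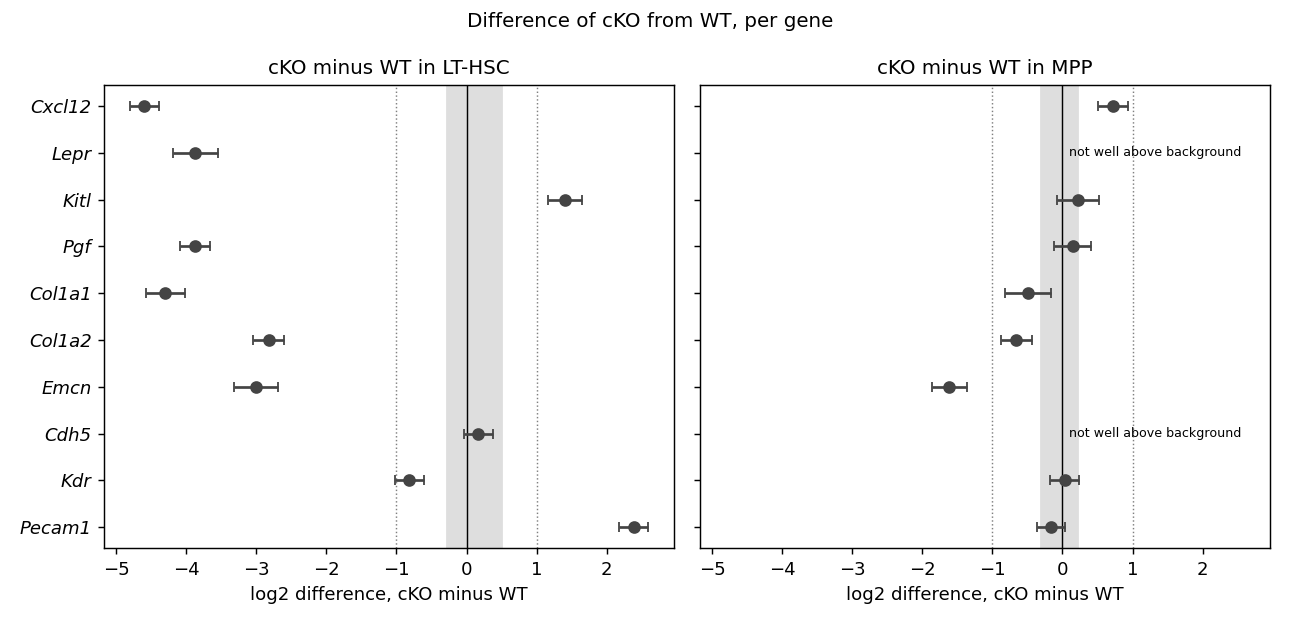
Log2 difference cKO minus WT of each gene in LT-HSC (left) and in MPP (right), with bars for the scanner software's error. The grey band is the middle 50% of all genes and the dotted lines mark 2-fold. In LT-HSC 6 genes lie beyond the lower line, with Pecam1 and Kitl beyond the upper one, and in MPP Emcn alone lies beyond the lower line.

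The populations were compared within each genotype, and these comparisons share their arrays with the genotype comparisons above, so the values stand side by side and are not separate observations. Within cKO, 2 of 10 members were higher on the LT-HSC array by 2-fold or more (8.18% of 26844 genes) and 1 was lower (6.74%). Cdh5 was at least 11.5-fold higher and Kitl 2.23-fold higher (1.15 ± 0.25), and Emcn was 2.20-fold lower (-1.14 ± 0.34). With normexp and quantile normalization Kitl (0.47) and Emcn (-0.35) lay within 2-fold. Pecam1 was 1.72-fold higher (0.78 ± 0.20) and Kdr lower by less than 2-fold (-0.51 ± 0.20). Lepr was at least 1.20-fold higher. Col1a2 differed by -0.35 ± 0.23, and Pgf (0.24 ± 0.24), Cxcl12 (0.18 ± 0.21) and Col1a1 (-0.18 ± 0.34) by no more than their scanner errors. The median over the 10 was 0.21 with bounds included and -0.0036 over the 8 measured on both arrays, against -0.04 over all genes.

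Within WT, 6 of 10 members were higher on the LT-HSC array by 2-fold or more (10.7% of 25421 genes) and 1 was lower (19.4%). Cxcl12 was 45.0-fold higher (5.49 ± 0.21) and ranked 64 from the highest of 22389 measured genes. Pgf was 19.1-fold higher (4.25 ± 0.24), Col1a1 12.3-fold (3.62 ± 0.26) and Col1a2 3.51-fold (1.81 ± 0.21). Lepr was at least 13.8-fold and Cdh5 at least 8.10-fold higher. Pecam1 was the one member lower on the LT-HSC array, by 3.41-fold (-1.77 ± 0.21). Kdr (0.34 ± 0.20), Emcn (0.26 ± 0.21) and Kitl (-0.03 ± 0.30) lay within 2-fold. The median was 2.42 with bounds included and 1.07 over the 8 measured on both arrays, against -0.16 over all genes, and was 1.35 with normexp and quantile normalization. In that setting Cxcl12 stood at 5.03, Pgf at 3.13, Col1a1 at 2.35 and Lepr at 2.00.

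**Figure D3:**
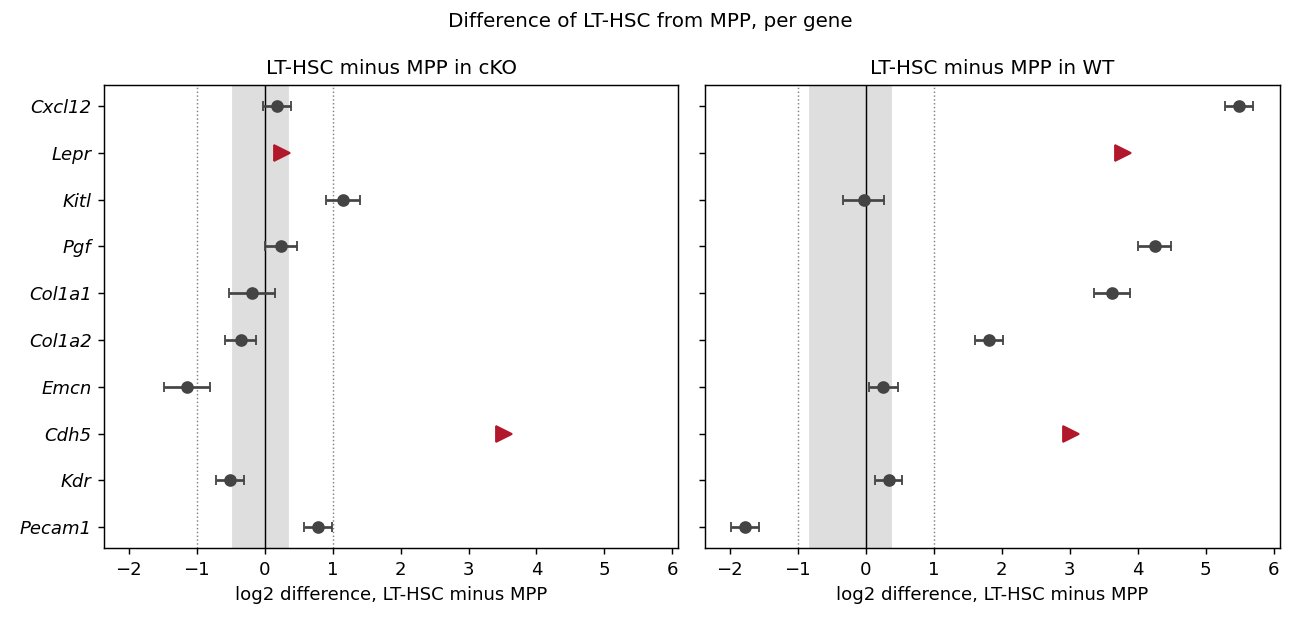
Log2 difference LT-HSC minus MPP of each gene in cKO (left) and in WT (right). Points with bars are measured on both arrays, with the scanner software's error, and red triangles are lower bounds where the MPP array was not well above background. The grey band is the middle 50% of all genes and the dotted lines mark 2-fold. Cdh5 lies past the upper line in both genotypes, and Cxcl12, Lepr, Pgf, Col1a1 and Col1a2 do so in WT.

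The 3 genes with several probes show how far a value depends on the place of the probe. For Cxcl12, the dimmer probe (variant 1) gave 13.8 on cKO LT-HSC, 53.2 on WT LT-HSC, 6.24 on cKO MPP and 3.44 on WT MPP. Only the WT LT-HSC value was well above background, so cKO was at least 3.65-fold lower than WT in LT-HSC, and in WT the LT-HSC array was at least 2.88-fold higher than the MPP array. Both Cxcl12 probes thus had their highest value on the same array.

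For Lepr, the probe of variants 1 and 2 gave 9.09 on cKO LT-HSC, 43.7 on WT LT-HSC, 8.50 on cKO MPP and 7.24 on WT MPP. The probe of variant 3 gave 8.79 on cKO LT-HSC, 43.9 on WT LT-HSC, 4.31 on cKO MPP and 11.5 on WT MPP. At both, only the WT LT-HSC value was well above background, which set the cKO LT-HSC array at least 3.27-fold and at least 3.29-fold below it, and the WT MPP array at least 2.36-fold and at least 2.38-fold below it. The probe of variant 1, at the highest coordinate of the 4, gave 2.97 on cKO LT-HSC, 6.58 on WT LT-HSC, 3.94 on cKO MPP and 3.91 on WT MPP. It was not well above background anywhere, so the difference was seen at 3 of the 4 Lepr probes.

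For Kdr, the dimmer probe was printed 10 times on each array and differed from the brighter one. It gave 33.0 on cKO LT-HSC, 43.4 on WT LT-HSC, 3.03 on cKO MPP and 3.62 on WT MPP. Its spots ranged over 29.6 to 38.1 on cKO LT-HSC (9 spots, 1 left out as an outlier), 35.8 to 52.5 on WT LT-HSC, 2.62 to 3.43 on cKO MPP and 3.16 to 4.04 on WT MPP. These spots repeat 1 probe within an array and are not replicates of a group, and on the MPP arrays 0 of them were well above background. At this probe the LT-HSC array was at least 2.39-fold above the MPP array in cKO and at least 2.35-fold above it in WT, whereas at the brighter probe the same differences were -0.51 and 0.34. With both probes averaged they were 1.36 in cKO, the other sign, and 1.83 in WT. Within LT-HSC the dimmer probe differed between cKO and WT by -0.31 ± 0.26 and the brighter by -0.81 ± 0.20. The dimmer Kdr probe thus had the population order of Cdh5, and the brighter probe was high on all 4 arrays. The cause of the disagreement was not tested.

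**Figure D4:**
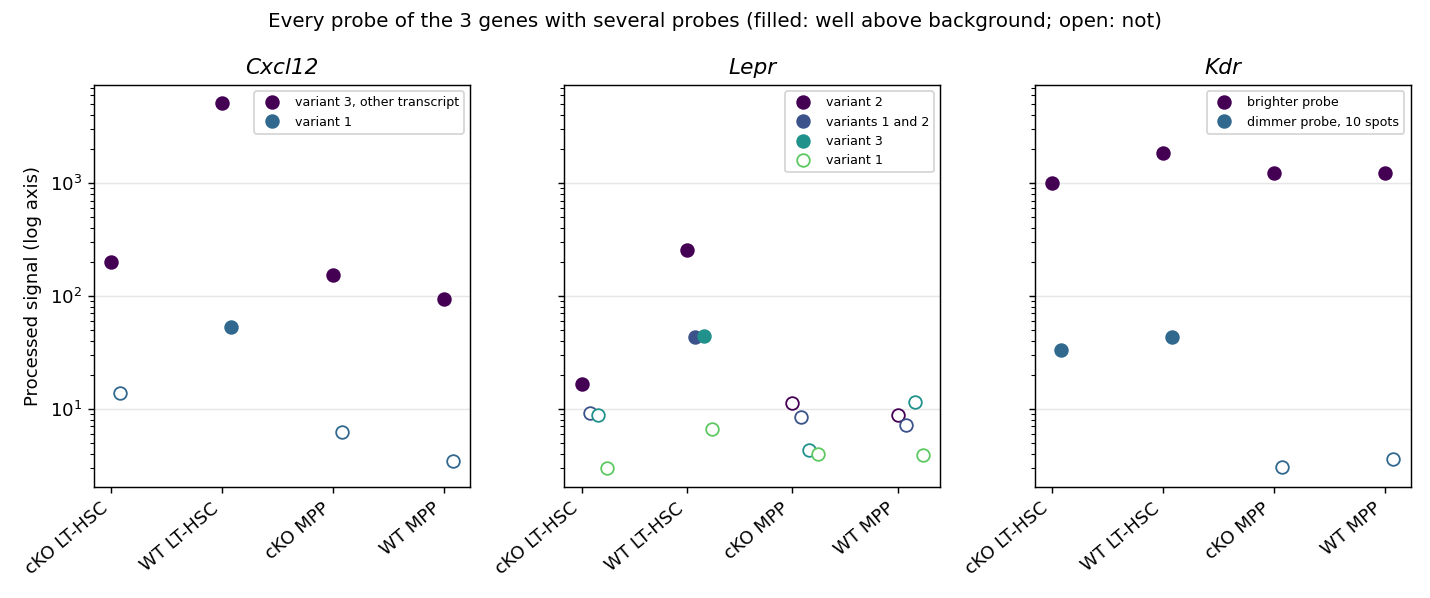
Processed signal (log axis) of every probe of Cxcl12, Lepr and Kdr on the 4 arrays, coloured by transcript variant or by brightness. Filled points are well above background and open points are not. Both Cxcl12 probes and 3 of 4 Lepr probes are highest, and well above background, on WT LT-HSC, and the dimmer Kdr probe is above background on the LT-HSC arrays only.

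Taking the shape over the 4 arrays (log2 levels minus a gene's own mean), the 5 genes nearest to Cxcl12 were Nrip2, Lepr, Olfr382, Gdpd2 and Cxcl14, at root mean square distances of 0.33, 0.34, 0.38, 0.40 and 0.42. Nrip2 had signals of 38.0 on cKO LT-HSC, 908.5 on WT LT-HSC, 42.2 on cKO MPP and 28.4 on WT MPP. Cxcl14, another chemokine, had 296.1 on WT LT-HSC and was not well above background on the other 3 arrays. Olfr382 and Gdpd2 were likewise well above background on that array alone. Over 4 arrays, with 1 array far brighter than the others, such a distance rests mostly on that array. Signals not well above background entered it as measured, so neighbouring ranks have no firm order. Of the other members, Pgf ranked 7 at 0.44, Col1a1 46 at 0.71 and Col1a2 541 at 1.32. Cdh5 and Emcn, both at 1.92, Kdr at 2.00, Kitl at 2.41 and Pecam1 at 2.99 were far from it, with ranks between 3990 and 26985.

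Other markers of the niche did not all share the order of the members. Of 26 further genes of marrow stroma, osteoblasts and endothelium, 19 were well above background on at least 1 array. By array these were 14 on cKO LT-HSC, 17 on WT LT-HSC, 10 on cKO MPP and 10 on WT MPP. Of all 34787 genes named on the array, 28286 had a probe well above background on at least 1 array. The stromal genes Pdgfra, Igfbp5 and Lum, the osteocyte gene Dmp1 and the endothelial genes Flt4, Sox17 and Sox18 were not well above background on any array. Within LT-HSC, 6 of the 18 with a value were at least 2-fold lower on cKO and 1 at least 2-fold higher, with a median of -0.13. Over all genes, 8.26% were lower and 10.8% higher by that much. In WT, 8 of 15 were higher and 1 lower on the LT-HSC array than on the MPP array (median 1.13). The shares of all genes there were 10.7% higher and 19.4% lower. In cKO, 3 of 14 were higher and 1 lower (median 0.31), against 8.18% and 6.74% of all genes. Within MPP, 1 of 11 was higher on the cKO array and 0 were lower (median -0.07), against 2.43% and 2.80% of all genes.

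Among marrow stroma genes, Pdgfrb, a receptor of pericytes, had 218.8 on cKO LT-HSC, 906.0 on WT LT-HSC, 332.7 on cKO MPP and 345.3 on WT MPP. The fat cell hormone Adipoq, also made by leptin receptor-positive stroma, had 26.3 on cKO LT-HSC, 117.9 on WT LT-HSC and no value well above background in MPP. The cKO minus WT differences in LT-HSC were -1.97 ± 0.20 for Pdgfrb and -2.08 ± 0.26 for Adipoq. The transcription factor Ebf3, which keeps these stromal cells in their state, was well above background on WT LT-HSC alone, at 69.8. Against this, the matrix genes Dcn and Col3a1 were within 2-fold between the genotypes in LT-HSC (0.60 ± 0.39 and 0.53 ± 0.32). The summed level of the 7 stroma genes seen on any array, in multiples of the array's 75th percentile, was 1.61 on cKO LT-HSC, 5.44 on WT LT-HSC, 2.37 on cKO MPP and 2.40 on WT MPP. Pdgfrb alone made up 1.08 of that sum on cKO LT-HSC, 4.24 on WT LT-HSC, 1.90 on cKO MPP and 1.93 on WT MPP.

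Of 6 osteoblast genes, Bglap, which encodes the bone protein osteocalcin, had 46.5 on cKO LT-HSC, 215.7 on WT LT-HSC, 41.8 on cKO MPP and 59.3 on WT MPP, a difference of -2.13 ± 0.22 between cKO and WT in LT-HSC. The bone sialoprotein gene Ibsp had 177.3 on WT LT-HSC and was not well above background on the other 3 arrays. Alkaline phosphatase Alpl went the other way, with 107.1 on cKO LT-HSC and 56.0 on WT LT-HSC (1.02 ± 0.22). Runx2, the osteoblast master factor, which haematopoietic cells also transcribe, was nearly level (-0.14 ± 0.20). Summed over its 5 genes seen on any array, this list stood at 8.36 on cKO LT-HSC, 10.4 on WT LT-HSC, 3.54 on cKO MPP and 3.75 on WT MPP. Most of that was Runx2, with 7.49 on cKO LT-HSC, 8.23 on WT LT-HSC, 3.11 on cKO MPP and 3.26 on WT MPP.

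Of 10 further endothelial genes, Tie1, an orphan receptor of endothelium, had 115.8 on cKO LT-HSC, 609.9 on WT LT-HSC, 175.8 on cKO MPP and 159.7 on WT MPP, with a cKO minus WT difference of -2.31 ± 0.21 in LT-HSC. It was the one gene of 7 with a value that reached 2-fold there, and the median of the 7 was 0.00. Plvap (-0.13 ± 0.21), Robo4 (0.12 ± 0.23) and the sinusoidal scavenger receptor Stab2 (0.86 ± 0.37) lay within 2-fold. Summed levels of the 7 were 1.73 on cKO LT-HSC, 3.95 on WT LT-HSC, 2.21 on cKO MPP and 1.98 on WT MPP.

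Lists of genes from the pathways around the members had medians nearer to 0 in LT-HSC than the -2.91 of the members. Since the members were selected with these differences known, nothing is read from that contrast. In LT-HSC, 8.26% of all genes were at least 2-fold lower on cKO and 10.8% higher, for comparison with these lists and those below. Of 21 niche factors and receptors that are not members, 3 of 18 with a value were at least 2-fold lower and 1 higher on cKO in LT-HSC (median -0.42). Il7r, the receptor of the stromal cytokine interleukin-7, stood at -1.59 ± 0.20 and the Notch ligand Dll4 at -1.34 ± 0.22. Cxcr4, the receptor of CXCL12, had 5800 on cKO LT-HSC, 7811 on WT LT-HSC, 4202 on cKO MPP and 5046 on WT MPP, a difference of -0.35 between the genotypes in LT-HSC. Kit, the receptor of stem cell factor, differed by -0.01 there. Both receptor genes thus lay within 2-fold between the LT-HSC arrays. Of the ligand genes, Cxcl12 was lower on cKO (-4.60) and Kitl higher (1.41, and 0.53 with normexp and quantile normalization). The ligand genes are members selected on these differences, so nothing is read from their contrast with the receptor genes.

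For collagen I, a list of 20 genes for other matrix chains and for collagen assembly had 2 of 19 at least 2-fold lower and 3 higher on cKO in LT-HSC (median -0.13). Sparc, a collagen-binding matrix protein, stood at -1.86 ± 0.25, but Col5a1 (1.54 ± 0.26), the prolyl hydroxylation cofactor Crtap (1.36 ± 0.20) and the hydroxylase subunit P4hb (1.09 ± 0.20) were higher. Col3a1 is also in the stroma list. The 8 genes of the VEGF family had a median of 0.46 over 6 with a value, with 1 higher and 1 lower, and Vegfa stood at 0.66 ± 0.20 and Vegfb at 0.54 ± 0.21. Flt1 and Flt4 are in the endothelial list too. Endothelial junction genes, 12 in all with Cldn5 shared, had a median of -0.03, with 1 higher and 0 lower. Icam2 (-0.92 ± 0.20) was their lowest measured value.

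Genes of other blood cells differed between the same arrays as the members. The 5 B cell genes were all highest on the WT LT-HSC array. Their summed level was 21.6 on cKO LT-HSC, 53.5 on WT LT-HSC, 1.75 on cKO MPP and 2.07 on WT MPP, with 4 of 5 at least 2-fold lower on cKO in LT-HSC (median -1.85) and 5 of 5 higher on LT-HSC than on MPP in WT (median 4.73). Igll1 (-2.20 ± 0.21) and Pax5 (-1.93 ± 0.20) had the largest differences between the genotypes in LT-HSC. Of 3 erythroid genes with a value, 2 were lower on cKO in LT-HSC (median -1.40), with summed levels of 7.57 on cKO LT-HSC, 12.6 on WT LT-HSC, 1.10 on cKO MPP and 0.66 on WT MPP. T and NK cell genes were lower in 2 of 6 (median -0.11), and 0 of 5 granulocyte genes reached 2-fold (median 0.22). The part of these preparations' make-up in the niche gene differences was not tested.

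Macrophage genes had another order, with 7 of 7 highest on the cKO MPP array and summed levels of 5.10 on cKO LT-HSC, 5.16 on WT LT-HSC, 31.3 on cKO MPP and 10.9 on WT MPP. Vcam1, which macrophages share with marrow stroma and endothelium, had 15.998 on cKO LT-HSC, 339.4 on WT LT-HSC, 1896 on cKO MPP and 714.2 on WT MPP. Within LT-HSC it was lower on the cKO array (-4.32 ± 0.31), as Cxcl12 was, while within MPP it was higher on the cKO array (1.44 ± 0.20), as the other macrophage genes were. Adgre1, a macrophage surface receptor, was higher on cKO in LT-HSC (1.99 ± 0.22), while C1qc was lower by less than 2-fold (-0.79 ± 0.21). Of the 7 macrophage genes, 2 were at least 2-fold higher and 1 lower there, with a median of -0.03. Platelets and megakaryocytes also carry PECAM1. Megakaryocyte genes had a median of -0.25 within LT-HSC, with 2 of 5 higher and 0 lower on the cKO array.

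**Figure D5:**
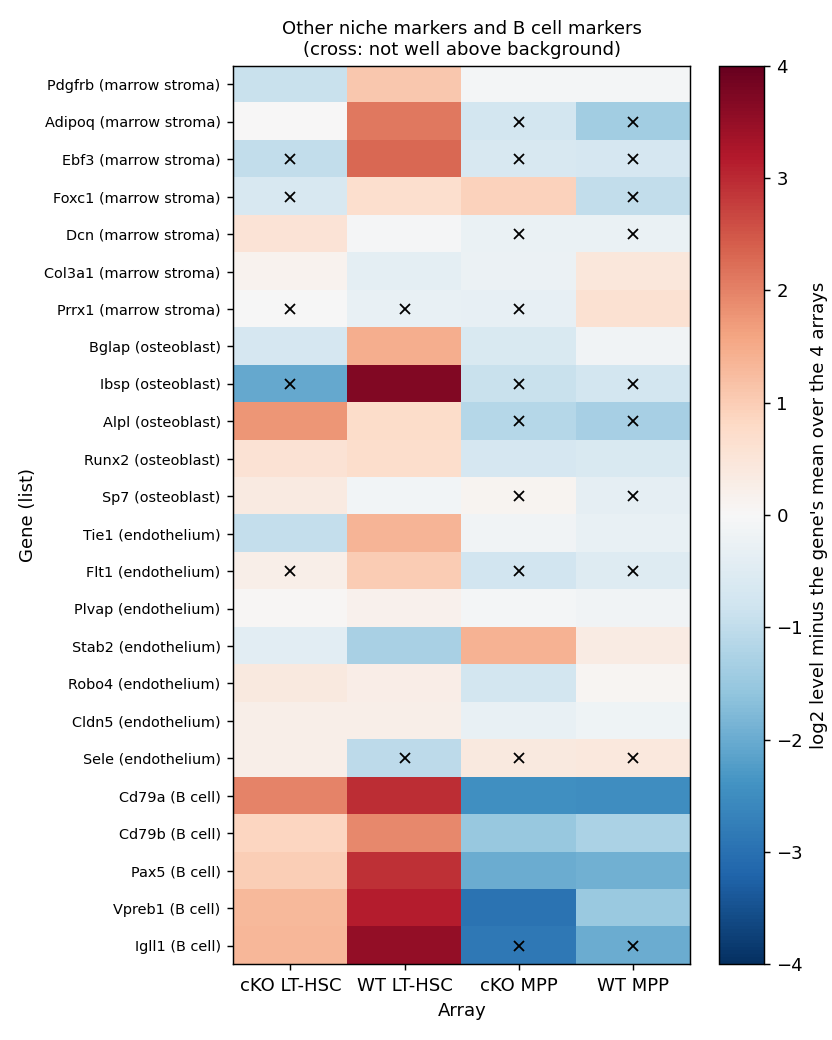
Heat map of the further niche markers and the B cell genes that were well above background on at least 1 array. Colour is the log2 level minus the gene's mean over the 4 arrays, and a cross marks a value not well above background. Pdgfrb, Adipoq, Ebf3, Bglap, Ibsp and Tie1 are highest on WT LT-HSC, as are all 5 B cell genes, while Alpl and Dcn are highest on cKO LT-HSC and Stab2 on cKO MPP.

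The promoters of Cxcl12 and Lepr are shown as examples of members bright on the WT LT-HSC array and dim on the others. They are the 250 bases before each start from RefSeq (GRCm38.p6), 5′ to 3′, and capitals mark matches, on either strand, to the TATA box TATAAA, the CCAAT box, the GC box GGGCGG or the purine-rich motif AGGAAG. RefSeq promoters matched 7 of the 10 members, with 9 starts.

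Cxcl12, chr6:117168285-117168534, plus strand: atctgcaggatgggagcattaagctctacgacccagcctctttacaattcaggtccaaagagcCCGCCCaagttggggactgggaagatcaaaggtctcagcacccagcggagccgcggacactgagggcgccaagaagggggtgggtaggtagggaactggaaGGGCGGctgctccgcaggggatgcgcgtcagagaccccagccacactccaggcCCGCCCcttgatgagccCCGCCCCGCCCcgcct
Lepr, first start, chr4:101717157-101717406, plus strand: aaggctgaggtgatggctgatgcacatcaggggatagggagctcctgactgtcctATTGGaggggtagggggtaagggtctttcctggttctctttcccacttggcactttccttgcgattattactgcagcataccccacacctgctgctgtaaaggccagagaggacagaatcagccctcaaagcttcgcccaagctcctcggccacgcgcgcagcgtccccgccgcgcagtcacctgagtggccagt
Lepr, second start, chr4:101717656-101717905, plus strand: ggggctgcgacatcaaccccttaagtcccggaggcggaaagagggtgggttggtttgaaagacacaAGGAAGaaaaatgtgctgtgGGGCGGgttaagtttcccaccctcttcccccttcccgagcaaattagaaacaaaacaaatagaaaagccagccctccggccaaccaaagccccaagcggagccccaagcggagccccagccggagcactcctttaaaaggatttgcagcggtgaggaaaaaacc

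The Cxcl12 window held 5 matches to GGGCGG, 2 of which overlap, the first Lepr start 1 match to CCAAT, and the second 1 match each to GGGCGG and AGGAAG. Of the 9 member promoters, GGGCGG was in 6, against 32.7% of all 32851 promoters of this length. CCAAT was in 2, against 33.8%, AGGAAG in 2, against 29.5%, and TATAAA in 1, that of Kitl, against 12.4%. A match is a description of the letters in this window.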

How the data were processed

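RNA of CFSE-positive cells was hybridised to 1-colour (Cy3) Agilent Mouse 60k arrays, 1 for each of the 4 groups, which the sample titles name. The authors deposited each array's intensity per spot as the scanner software wrote it, which was Agilent Feature Extraction version 10.7.3.1 in the file headers and version 9.5.3 in the submitters' processing notes. Background was subtracted within each array per the file headers, and flags (a score of 0 or 1) marked outlier spots and spots saturated or well above background. The authors' series table held 55669 probes as a ratio to each probe's own level, and its values differed from rescaled scanner values by at most 0.00029 (log2) for 99% of them in every comparison. Its scaling rule was not stated in the sources used here, and it served as an alternative only.

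Spots flagged as outliers (137 to 151 an array) were left out, log2 signals of a probe's spots were averaged, and the 75th percentile of the array's non-control probes was taken off. Of a gene's probes that passed background on any array, the one with the highest mean was used. Where 1 array of a pair was not well above background, the bright value was divided by the dim probe's own signal or the lowest signal well above background there, whichever was higher ("at least N-fold"). Where both were not, no difference was given. Genes were called at 2-fold, with no p-value. Of all probes, 26762 were named by accession, 3819 by symbol and 639 by an older symbol from RefSeq (GRCm38.p6), and 24461 kept the name in the file. R 4.3.3, limma 3.58.1 (normexp and quantile alternatives), Python 3.11.15, pandas 2.3.3 and numpy 2.4.6 were used. Normexp was run with an offset of 50. The scripts were tested on simulated data.

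The members and all other gene lists were chosen with earlier results of these data known. The text names the 10 members at every probe, at most 4 genes of a list and comparison by size of difference among those well above background on both arrays, the genes used for sorting, and the 5 genes nearest to Cxcl12. Genes named outside this rule (Ebf3, Ibsp, Cxcr4, Flt1, Ptprb, Ppbp, Csf1, Sele, Col5a2 and genes never well above background) were chosen after their values were seen. A further listed gene is not reported here.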

Additional observations from a re-analysis of the deposited data

Results flagged for a closer look

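For 5 of the niche genes, the same comparison went in opposite directions in 2 groups, each by more than the scanner error and measured on all arrays. None of these differences was tested. For Cxcl12 the cKO minus WT difference was -4.60 in LT-HSC and 0.72 in MPP, -5.32 apart (log2). For Col1a2 the LT-HSC minus MPP difference was -0.35 in cKO and 1.81 in WT, -2.16 apart. Emcn stood at -1.14 in cKO and 0.26 in WT, -1.39 apart, and Kdr at -0.51 in cKO and 0.34 in WT, -0.85 apart. Pecam1 went the other way, at 0.78 in cKO and -1.77 in WT, 2.55 apart. The Kdr values are those of its brighter probe only. At the dimmer Kdr probe the LT-HSC array was higher in both genotypes, at least 2.39-fold in cKO and at least 2.35-fold in WT.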

How the results depend on the processing

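The 4 medians and 4 counts of members at 2-fold were recomputed under 7 alternatives: the percentile taken over all-array probes (those well above background on all 4 arrays), quantile normalization, normexp with quantile normalization, the scaling of the authors' series table, averaging the probes of a gene, no filter on dim probes, and all-array probes only. With normexp and quantile normalization, the median of cKO minus WT in LT-HSC was -1.66 against -2.91, that of LT-HSC minus MPP in WT 1.35 against 2.42, the count in MPP between the genotypes 0 against 1, and the count between the populations in cKO 1 against 3. The WT population median was 1.96 with probes averaged, 2.72 without the filter and 1.07 with all-array probes, where Lepr and Cdh5 drop out. The cKO population median was 0.55 with probes averaged, against 0.21, and -0.0036 with all-array probes. The genotype median in MPP, -0.06, was 0.01 with quantile normalization and 0.09 without the filter. Of 259 recomputed single-gene differences, 35 moved beyond the scanner error, 21 of them with normexp and 8 with probes averaged, and 5 had the other sign. Those 5 were Kdr between the populations in cKO (1.36 with probes averaged, against -0.51), Kdr between the genotypes in MPP (-0.096 with probes averaged, against 0.03) and Kitl between the populations in WT (0.02 to 0.12 under 3 scalings, against -0.03). Of the 129 of 2-fold or more, 129 had the same sign and 125 were still at 2-fold. The 4 that were not all fell under normexp: Kitl between the genotypes in LT-HSC (0.53), Emcn between them in MPP (-0.86), and Kitl (0.47) and Emcn (-0.35) between the populations in cKO. The normexp setting adds an offset of 50 to the signals. On the 4 arrays the processed signal was 25.9 to 76.3 for Kitl and 16.9 to 144.2 for Emcn. The part of this offset in the smaller differences was not tested apart from the rest of the setting.

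Over all genes, the share of 2-fold calls that were higher was 56.8% between the genotypes in LT-HSC, against 45.4% with normexp (920 higher and 1107 lower in place of 2992 and 2279). In MPP it was 46.4% against 65.0% (102 and 55 in place of 609 and 703), with 1689 and 2038 called without the filter and 344 and 373 with all-array probes. Between the populations in WT it was 35.6%, against 49.9% with normexp (1750 and 1758 in place of 2720 and 4920), 45.9% with the all-array percentile and 45.6% with quantile normalization. In cKO it was 54.9%, against 68.3% (957 and 445 in place of 2197 and 1808) and 65.5% with that percentile, and 3572 and 2790 genes were called without the filter. The median of all genes moved by over 0.1 between the genotypes in LT-HSC (0.01 with normexp, against 0.12), between the populations in WT (0.0061 with normexp, 0.00065 with quantile normalization and 0.0078 with the all-array percentile, against -0.16) and between them in cKO (0.07 with that percentile, against -0.04). No paired analysis was possible because each group has 1 array and the labels give no replicate numbers, and for the same reason no replicate could be left out. Signals near the lowest well above background, such as Lepr, Emcn and Col1a1 on cKO LT-HSC, limit the precision of their folds, as does the number of arrays.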

Other observations

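Of the genes in the other lists, 5 were well above background on cKO LT-HSC and on no other array (Ptprb, Ppbp, Csf1, Sele and Col5a2), and were picked out after their values were seen. Ptprb, the phosphatase VE-PTP that associates with VE-cadherin, had a signal of 168.9 on cKO LT-HSC, against 11.1 on WT LT-HSC, 8.21 on cKO MPP and 4.03 on WT MPP, so it was at least 15.3-fold higher on cKO LT-HSC than on WT LT-HSC. By the same bound the platelet chemokine Ppbp was at least 4.30-fold and the macrophage growth factor Csf1 at least 4.20-fold higher. Sele had 13.5 on cKO LT-HSC, 5.94 on WT LT-HSC, 13.1 on cKO MPP and 13.5 on WT MPP, so only its flag set it apart from the MPP arrays. Col5a2 had 16.6 on cKO LT-HSC, 9.70 on WT LT-HSC, 10.4 on cKO MPP and 5.96 on WT MPP. The share of all genes with this pattern of flags is not given here.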
